A study of Mus musculus with 4 samples.

Results

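Neuroendocrine and CGRP genes were followed in lung lobes of Fgf8 hypomorph and wild type mouse fetuses. The set was every non-control spot whose file gene name is Calca, Calcb, Chga, Chgb, Syp, Uchl1, Resp18, Scg2 or Scg5, which gave 9 genes on 12 of the array's 41174 probes. Of these, 9 probes of 8 genes were bright enough to be tested, among 29950 tested probes. The tested lungs were Fgf8H/- hypomorphs and the controls were Fgf8+/+ littermates, both taken at E18.5, shortly before birth, on a background labelled c57nl7/sv129. The sample titles call the mutant AP/N, a name the sources used here do not explain. Lobes were freed of large airways and vessels before RNA extraction, and 3 lungs of a genotype made 1 pool. Each of 4 two-colour arrays carried a hypomorph pool in Cy5 and a wild type pool in Cy3, so n = 4 pools per genotype. All hypomorph pools carried Cy5 and all wild type pools Cy3, so genotype and dye cannot be told apart. The p-values measure the spread between pools, not between animals.

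Pulmonary neuroendocrine cells are rare airway epithelial cells, found singly or as innervated clusters called neuroepithelial bodies, that store peptides and amines in dense core vesicles and release them on stimulation. Calcitonin gene-related peptide (CGRP) is the peptide by which they are usually recognised in the mouse. It comes from Calca, whose primary transcript is spliced to encode either calcitonin or alpha-CGRP, and from the neighbouring gene Calcb, which encodes beta-CGRP. Chga, Chgb, Scg2 and Scg5 encode granins, the acidic cargo and helper proteins of dense core vesicles. Syp encodes a membrane protein of small synaptic vesicles, Uchl1 a ubiquitin hydrolase known as PGP9.5, and Resp18 a secretory granule protein. Neurons and nerve fibres also make most of these products. In RNA from whole lobes, fewer cells of a type and less RNA per cell cannot be told apart.

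Both CGRP genes were lower in hypomorph lungs, Calca 1.54-fold and 1.57-fold at its 2 probes and Calcb 1.48-fold. Whether the Calcb probe also reads Calca messages was not tested. In the main processing, the 6 other tested genes differed from wild type by 1.23-fold or less. At an adjusted p under 0.05 (limma, Benjamini-Hochberg over all tested probes), 4 of the 9 member probes were called lower and 0 higher. These were both Calca probes, the Calcb probe and the Chga probe. At an unadjusted p under 0.05, the same fit had 5 lower and 1 higher, the additions being Scg5 and Uchl1. For comparison, 12.2% of all tested probes were called lower and 12.7% higher, together 24.9%. The count of 4 was 2 without replicate 2 and 2 without replicate 3. The gap between the CGRP genes and the others depended on the processing. With the scanner software's processed intensities, the log2 ratios were -0.40 for Scg5, -0.28 for Resp18 and 0.36 for Uchl1, none of them called. In that setting the Calca probes had -0.63 and -0.64 and Calcb -0.99.

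The promoters of several members carry a cAMP response element, the site bound by CREB-family factors, and 3 are shown. Calca and Chga were called lower, Chga just inside the threshold, and Chgb was not called. The Chga and Chgb ratios were close (-0.17 and -0.09), and a difference between them was not tested. Each line is the 100 bases before the annotated start, read 5′ to 3′ on the gene's strand, from RefSeq on GRCm38.p6. Capitals mark the letters TGACG or the whole palindrome TGACGTCA. The stretches are chr7:114636358-114636457 on the minus strand for Calca, chr12:102554841-102554940 on the plus strand for Chga and chr2:132781542-132781641 on the plus strand for Chgb.
Calca: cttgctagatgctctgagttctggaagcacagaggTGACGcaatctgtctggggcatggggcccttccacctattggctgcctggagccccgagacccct
Chga: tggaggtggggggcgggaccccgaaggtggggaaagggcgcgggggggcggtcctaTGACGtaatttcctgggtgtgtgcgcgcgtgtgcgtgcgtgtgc
Chgb: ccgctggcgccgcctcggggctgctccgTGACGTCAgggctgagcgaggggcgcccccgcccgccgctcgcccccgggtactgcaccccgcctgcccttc
Promoter windows were found for 8 of the 9 genes, the exception being Calcb. In the 250 bases before the start, TGACG or its complement was present in 5 of 8 member windows (Calca, Chga, Chgb, Scg2 and Scg5), against 17.8% of 32851 windows of that length. The full palindrome, which contains the shorter motif on both strands, was present in 2 of 8 (Chgb and Scg2), against 1.55% of all windows. In Calca the short motif covered bases 65 to 61 before the start and in Chga bases 44 to 40. The E-box CAGCTG was present in Chga and Resp18, that is in 2 of 8, against 13.0% of windows. These are matches of letters only. Genes with the short motif fell on both sides of the call.

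Calca is read by 2 probes. The probe for transcript variant 2 (chr7:114422839-114422898 in mm8, the build of the array files, minus strand) had normalised intensities of 1450, 1790, 1080 and 1230 in the hypomorph pools of replicates 1 to 4, against 2760, 2490, 1790 and 1710 in the wild type pools. Its hypomorph pool was the dimmer on every array, although the brightest hypomorph pool reached the dimmest wild type pools. Its log2 ratios of hypomorph over wild type were -0.93, -0.47, -0.73 and -0.48. The mean was -0.65 ± 0.22 (SD, n = 4), a 1.57-fold lower level with an adjusted p of 0.00596. Of all tested probes, 0.895% had a lower mean ratio.

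The probe for transcript variant 1 (chr7:114424467-114424526, mm8, minus strand) lies 1628 bases upstream of the other along the gene. It had intensities of 605, 863, 429 and 648 in hypomorph pools and 1180, 1180, 717 and 812 in wild type pools. Again each hypomorph pool was below its partner, and the groups overlapped. The ratio was -0.62 ± 0.29, or 1.54-fold lower, with an adjusted p of 0.0122. Without replicate 2 this adjusted p was 0.054 and without replicate 3 it was 0.0563. The variant 2 ratio minus the variant 1 ratio was 0.04, -0.02, 0.01 and -0.15 on the 4 arrays, with a mean of -0.03 ± 0.08 and an exact two-sided sign-flip p of 0.75, where 4 arrays allow no p below 0.125. The array with the deepest fall at one probe, replicate 1, was also the deepest at the other. Which of the calcitonin and CGRP messages each probe reads was not tested, since the variants are known here only by number.

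Calcb encodes beta-CGRP and is transcribed from the opposite strand (chr7:114514169-114514228, mm8, plus strand). Its intensities were 144, 165, 126 and 120 in hypomorph pools, against 215, 240, 197 and 170 in wild type pools. Here the groups did not overlap, since the brightest hypomorph pool was dimmer than the dimmest wild type pool. The ratios of -0.58, -0.54, -0.64 and -0.51 were the most even of the called member probes, with a mean of -0.57 ± 0.06, a 1.48-fold lower level and an adjusted p of 0.00158. This probe is dim, and its ratio depended on how background was removed, reaching -0.99 with the scanner software's processed intensities. Its call held in all 19 alternatives.

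Calca and Calcb were compared with each other and with the rest of the set on each array. The ratio of the Calca variant 2 probe minus that of Calcb was -0.08 ± 0.19 (exact two-sided sign-flip p of 0.625), and of the variant 1 probe minus Calcb -0.05 ± 0.25 (exact p of 0.75), so no difference was detected at n = 4. Cross-reading of Calca messages by the Calcb probe was not tested, so the 2 genes may not be independent readings. Against the median ratio of the 6 tested probes of the other members on the same array, the difference was -0.57 ± 0.27 for the variant 2 probe, -0.54 ± 0.34 for the variant 1 probe and -0.49 ± 0.09 for Calcb. All 3 were lower on 4 of 4 arrays, and each had an exact p of 0.125, the smallest that 4 arrays can give. This last comparison was chosen after the values were seen.

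**Figure D1:**
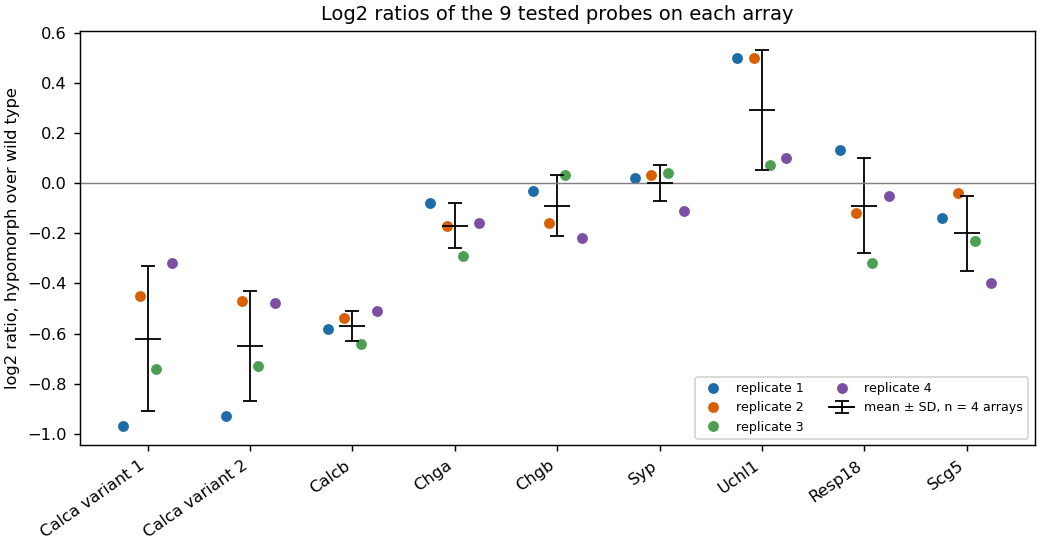
Log2 ratio of hypomorph over wild type (vertical axis) for each tested member probe, with a point per array and the mean ± SD over 4 arrays. Both Calca probes and Calcb lie below 0 on every array with means of -0.62, -0.65 and -0.57, while the means of the other probes lie between -0.20 and 0.29.

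The granin genes showed smaller differences. Chga, encoding chromogranin A, had 158, 150, 186 and 200 in hypomorph pools, against 166, 169, 227 and 223 in wild type pools (chr12:102965923-102965982, mm8, plus strand). The hypomorph pool was dimmer on each array, but the gap was small against the spread between arrays within a genotype and the groups overlapped. Its ratio was -0.17 ± 0.09, or 1.13-fold lower, with an adjusted p of 0.049, just inside the threshold. The call was lost in 9 of 19 alternatives, with adjusted p-values up to 0.175.

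Chgb, encoding chromogranin B, was read by a probe printed 10 times on each array. The probe (chr2:132486408-132486467, mm8, plus strand) had 419, 378, 449 and 489 in hypomorph pools and 427, 423, 439 and 569 in wild type pools. The groups overlapped, and replicate 3 was slightly higher in the hypomorph. Its ratio was -0.09 ± 0.12, with an adjusted p of 0.252 and a 95% interval of -0.23 to 0.04. The SD among its spots within an array was 0.05 to 0.07. That interval excludes a fall of the size measured for Calca or Calcb. A further Chgb probe stayed at background in both genotypes, at 58.0 to 62.3 in hypomorph pools and 64.2 to 72.1 in wild type pools, and gave no fold.

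Scg5 encodes 7B2, the chaperone of prohormone convertase 2. It had 151, 146, 126 and 139 in hypomorph pools, against 166, 150, 148 and 184 in wild type pools (chr2:113577293-113577352, mm8, minus strand). It was lower on 4 of 4 arrays, the groups overlapped at 148 to 151, and the ratio of -0.20 ± 0.15 was not called (adjusted p = 0.0687).

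Scg2, encoding secretogranin II, had 78.5, 73.7, 70.0 and 79.0 in hypomorph pools and 83.4, 75.3, 80.4 and 94.5 in wild type pools (chr1:79314468-79314527, mm8, minus strand). It was well above background on 0 hypomorph and 1 wild type array and was not tested. Resp18 had 138, 117, 117 and 123 in hypomorph pools, against 126, 128, 146 and 127 in wild type pools (chr1:75157172-75157352, mm8, minus strand). Its direction differed between arrays, and the ratio of -0.09 ± 0.19 was not called (adjusted p = 0.40).

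**Figure D2:**
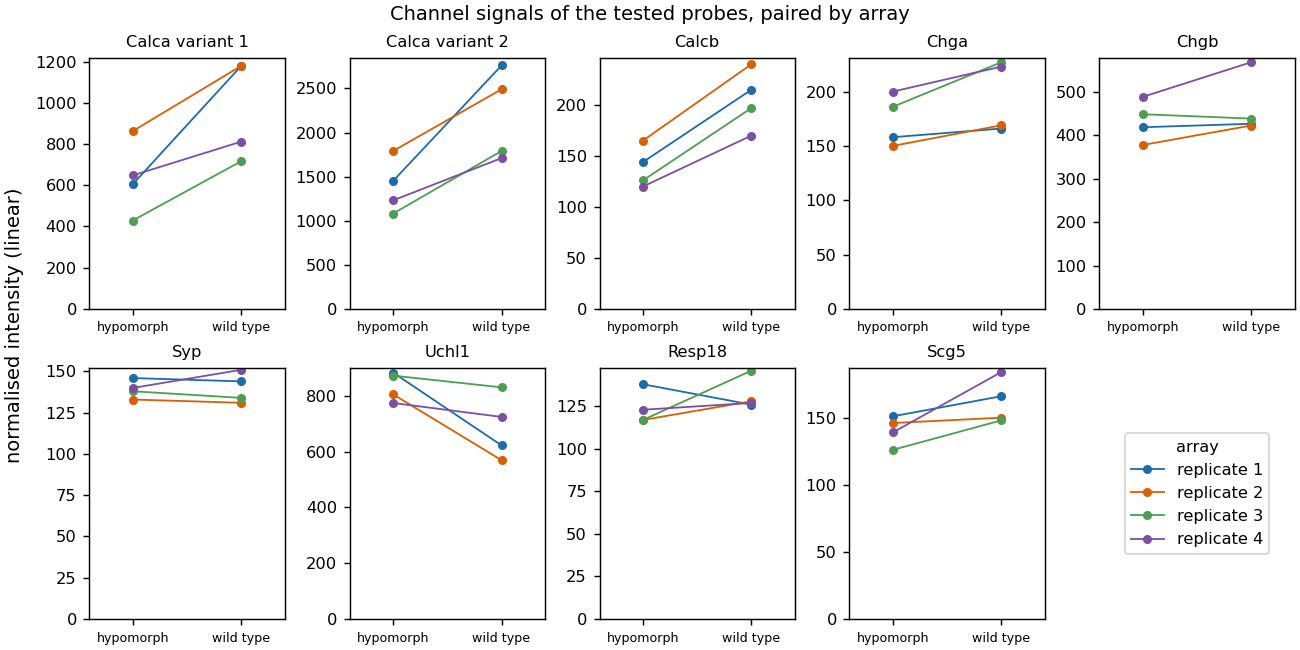
Normalised intensity (vertical axis, linear, starting at 0) of each tested member probe in the hypomorph pool (left) and the wild type pool (right), joined by array. All lines climb to the right for both Calca probes, Calcb, Chga and Scg5, and for Calcb the highest hypomorph value, 165, is below the lowest wild type value, 170.

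Syp and Uchl1 did not follow Calca. Syp had 146, 133, 138 and 140 in hypomorph pools and 144, 131, 134 and 151 in wild type pools (chrX:6809808-6809867, mm8, plus strand). The ratio was 0.00 ± 0.07, with an adjusted p of 0.955 and a 95% interval of -0.11 to 0.11.

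Uchl1 leaned the other way. Its tested probe (chr5:66961782-66962873, mm8, plus strand) had 883, 805, 872 and 774 in hypomorph pools, against 622, 569, 830 and 724 in wild type pools. The ratios fell into 2 levels, 0.50 and 0.50 on replicates 1 and 2 and 0.07 and 0.10 on replicates 3 and 4. The mean of 0.29 ± 0.24, or 1.23-fold, was not called (adjusted p = 0.0625). It was called with median centring in place of loess (0.42, adjusted p = 0.00351), with scale normalization between arrays (0.27, adjusted p = 0.0454) and with the channels fitted separately (0.29, adjusted p = 0.0256). A brighter Uchl1 probe (chr5:66966304-66966364, mm8) was marked as an outlier spot on 3 of 4 arrays and was not tested. With the marks ignored its ratios were 0.24, 0.45, 0.05 and 0.16, again positive on 4 of 4 arrays and largest on replicate 2.

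**Figure D3:**
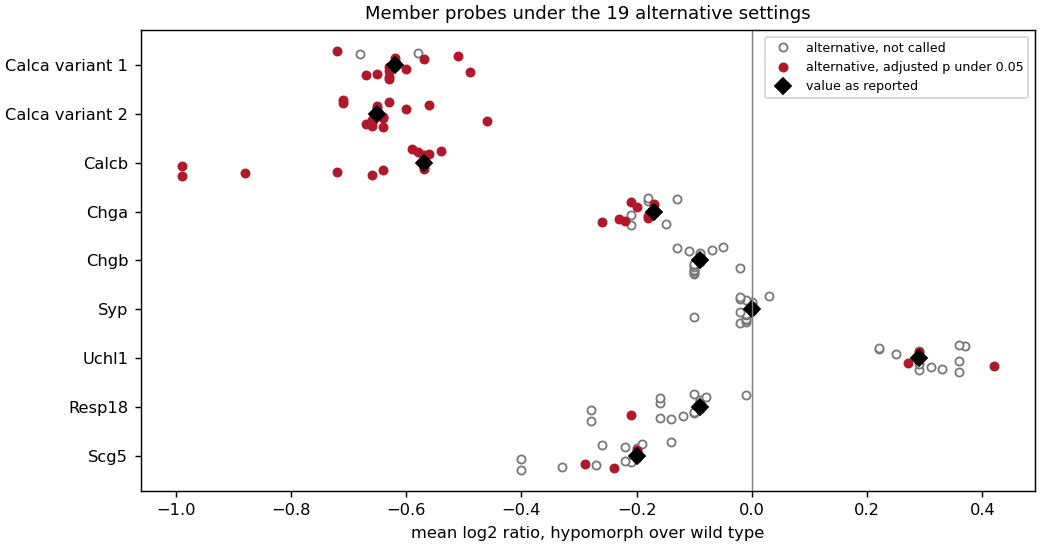
Mean log2 ratio of hypomorph over wild type (horizontal axis) of each tested member probe as reported (diamonds) and under the alternative settings (circles, filled where the adjusted p was under 0.05). All circles for both Calca probes and Calcb lie left of 0, reaching -0.99 for Calcb, and all those for Uchl1 lie right of 0.

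Of the tested genes within 500 kb on chromosome 7, only Calca and Calcb were called lower. The tested probes of Copb1, AK033846, Pde3b, Cyp2r1 and Insc had mean ratios between -0.19 and 0.06 and were not called. Psma1, a proteasome subunit gene 367 kb away, was called higher (0.21 ± 0.06, adjusted p = 0.0226). Pde3b and Cyp2r1, at 95.5 and 81.3 kb from Calca, lie about as near to it as Calcb does, at 91.3 kb. They had ratios of -0.15 ± 0.12 and 0.06 ± 0.19. Pde3b was called lower in 4 of 19 alternatives, with an adjusted p down to 0.0233.

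**Figure D4:**
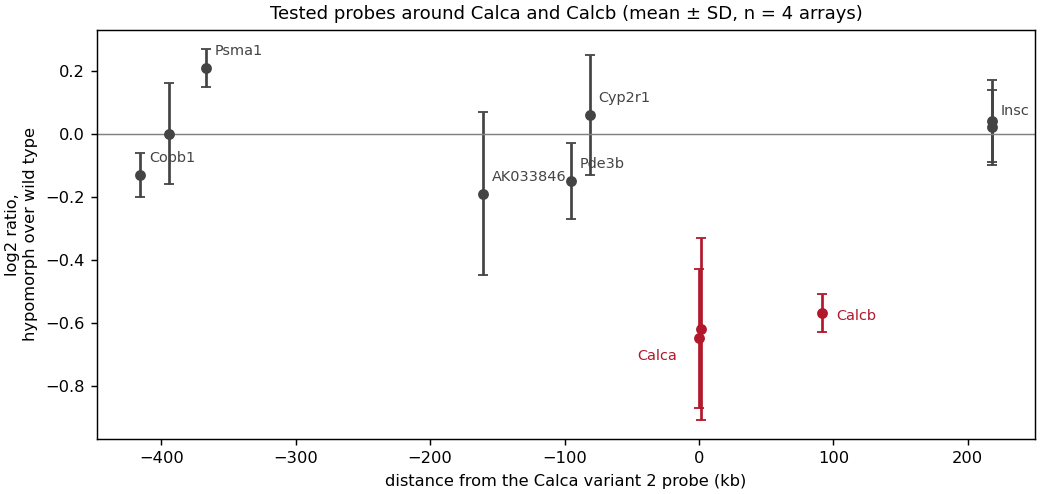
Mean log2 ratio of hypomorph over wild type (vertical axis, ± SD over 4 arrays) against the distance in kb from the Calca variant 2 probe. The Calca and Calcb probes, in red, have means from -0.65 to -0.57, and the tested probes of neighbouring genes lie between -0.19 and 0.21.

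Among genes for prohormone processing and dense core vesicles, more were called lower than higher, and most were not called. Each further gene is given by its brightest tested probe, and of 19944 genes so tested 13.2% were called lower and 13.8% higher, together 27.0%, with a median ratio of 0.00. Of 16 tested genes for prohormone processing and dense core vesicles, 5 were called lower and 1 higher, with a median of -0.13. The lower genes were Qpct, the glutaminyl cyclase that caps peptide ends (-0.48 ± 0.08, adjusted p = 0.00294), Scg3, a granin that anchors cargo to the vesicle membrane (-0.24 ± 0.12), Ica1, an islet autoantigen (-0.22 ± 0.05), Slc18a2, the vesicular monoamine transporter (-0.22 ± 0.12), and Pcsk1, prohormone convertase 1 (-0.21 ± 0.07). Rab3b, a small GTPase of secretory vesicles, was higher (0.26 ± 0.14, n = 3). Pcsk2 had a ratio of -0.09 ± 0.13 and was not called. Other Ica1 probes, at -0.08 and -0.04, were not called, nor was a dimmer Slc18a2 probe at -0.16. Cpe and Pam, further genes of this list named after their values were seen, were not called at their brightest probes (-0.28, and 0.06 with n = 3). A dimmer Cpe probe was called lower (-0.39), and dimmer Pam probes, at -0.17 and 0.01, were not called. The count of 5 was 1 without replicate 2 and 1 without replicate 3, and Ica1 turned to 0.10 under median centring.

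Of 8 tested granin and cargo genes, Chga and Scg3 were lower and Gnas was higher, with a median of -0.09. The Gnas locus encodes a stimulatory G protein subunit and also a granin-like protein. Its 7 tested probes ranged from -0.36 to 0.22, the highest being the one counted. These calls were lost without replicate 2, without replicate 3 and with the processed intensities.

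Of 11 tested genes for other peptides, 3 were lower and 3 higher, with a median of -0.09. The lower genes were Grp, encoding gastrin-releasing peptide (-0.27 ± 0.10), its relative Nmb (-0.26 ± 0.17) and the enkephalin precursor Penk (-0.24 ± 0.09). The higher genes were Pyy, encoding peptide YY (0.55 ± 0.07, adjusted p = 0.00182), the galanin gene Gal (0.37 ± 0.05, n = 3) and the melanocortin and endorphin precursor Pomc (0.26 ± 0.11). Without replicate 2 or without replicate 3, 1 gene was called higher and the lower calls were lost. Under median centring Grp, Nmb and Penk had -0.05, -0.05 and -0.07. A dimmer Pyy probe had a ratio of 0.08 and was not called.

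The CGRP receptor genes Calcrl and Ramp1 were lower, as was Adm, the gene of the related peptide adrenomedullin. Of 6 tested receptor genes and relatives, these 3 were lower and 0 higher, also at an unadjusted p under 0.05, with a median of -0.22. Calcrl, the receptor that binds CGRP when paired with Ramp1 and adrenomedullin with its other partners, had -0.52 ± 0.13 (n = 3, adjusted p = 0.0078), and its dimmer probe had -0.24. Ramp1 had -0.29 ± 0.19 (adjusted p = 0.0393) and Adm -0.63 ± 0.06 (adjusted p = 0.00134). The count of 3 was 1 without replicate 2 and 2 without replicate 3, and Ramp1 lost its call in 8 of 19 alternatives. Ramp2, a further partner of Calcrl, was measured on too few arrays to be tested. The bright Calcrl probe turned to 0.05 under median centring, a setting that moved the median of all probes to 0.10 and the calls to 10994 higher and 3794 lower, against 3804 and 3664.

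**Figure D5:**
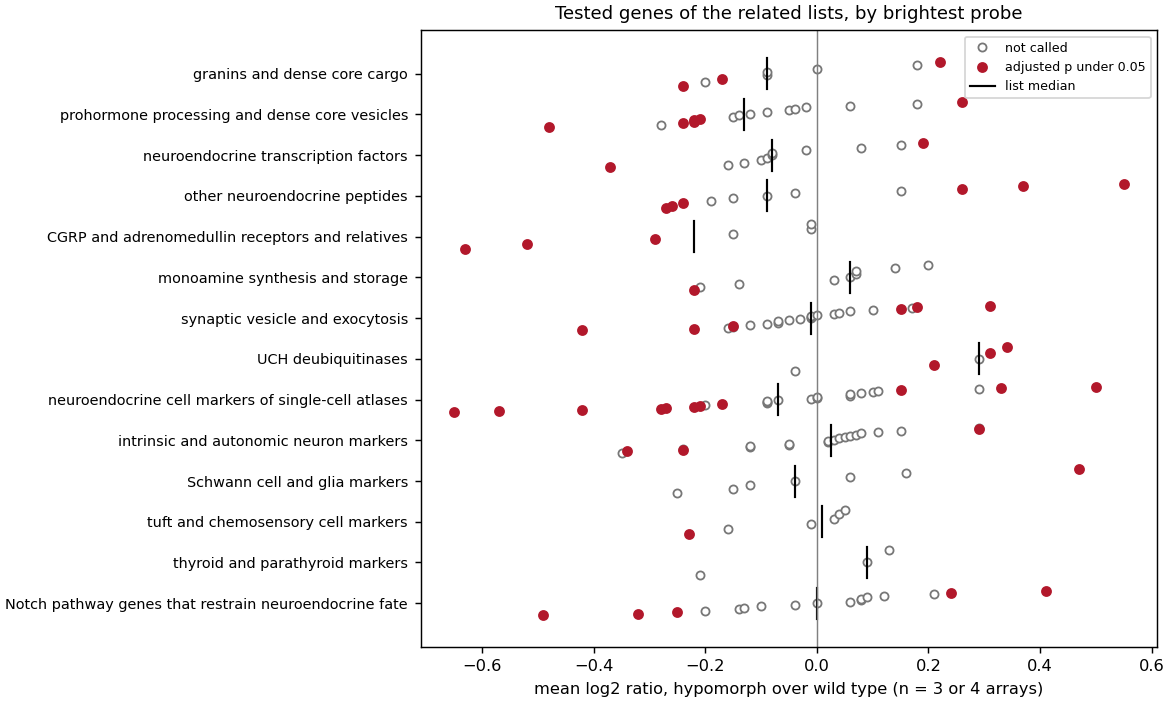
Mean log2 ratio of hypomorph over wild type (horizontal axis, n = 3 or 4 arrays) of each tested gene in 14 lists, with filled points at an adjusted p under 0.05 and a bar at each list's median. Medians run from -0.22 for receptors to 0.29 for UCH deubiquitinases, and most lists hold called genes on both sides of 0.

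Transcription factors of the neuroendocrine fate gave few calls. Insm1, Neurod1 and Nkx2-2 were well above background on 0 arrays. Of 11 tested factors, Rb1 was lower (-0.37 ± 0.09, adjusted p = 0.00598, with -0.07 at a dimmer probe) and Nkx2-1 higher (0.19 ± 0.09, adjusted p = 0.0392), with 5 higher under median centring. Of 17 tested Notch pathway genes, which restrain this fate in neighbouring cells, 3 were lower and 2 higher. Dll4 (-0.32 ± 0.06), Hey1 (-0.49 ± 0.11, n = 3) and Jag2 (-0.25 ± 0.04) were lower, and Heyl (0.41 ± 0.14) and Hes5 (0.24 ± 0.02) were higher. Under median centring, 0 were lower and 7 higher, with Hey1 at -0.01 and Jag2 at -0.03. Without replicate 2 or without replicate 3, 1 was lower and 1 higher.

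A list of neuroendocrine markers from single-cell atlases, written from general knowledge and holding all 9 members, had 25 tested genes, of which 8 were lower and 3 higher, with a median of -0.07. Without the members, 17 genes were left, of which 5 were lower and 3 higher, with a median of 0.00. Among the lower ones were Celf3, an RNA-binding protein of neural cells (-0.42 ± 0.08, adjusted p = 0.0039), Slc35d3 (-0.22 ± 0.08), Grp and Pcsk1. The higher ones were the adhesion gene Ncam1 (0.50 ± 0.07, adjusted p = 0.00236), the chemokine gene Cxcl13 (0.33 ± 0.20) and Cplx2, a regulator of vesicle fusion (0.15 ± 0.04). Ncam1 had 7 tested probes from 0.04 to 0.50, of which 2 were called. The count of 8 was 3 without replicate 2 and 3 without replicate 3. Slc35d3 and Cxcl13 were named after their values were seen.

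Of 23 tested genes for synaptic vesicles and exocytosis, 3 were lower and 3 higher, with a median of -0.01, near that of all genes. Vamp2, a fusion protein of vesicles, was lower at its brightest probe (-0.42 ± 0.19) and not at 2 dimmer ones (0.09 and 0.10), and Syngr1 and Rab3a, of the vesicle membrane, had -0.22 ± 0.08 and -0.15 ± 0.02. Syn1, encoding synapsin (0.31 ± 0.11), the active zone gene Rims2 (0.18 ± 0.05) and Cplx2 were higher. A far dimmer Syn1 probe was also called higher (0.21). Another Rims2 probe (0.00) and other Syngr1 probes (0.11 and -0.19) were not called. Syngr1 and Rab3a turned to 0.01 and 0.07 under median centring. The lower calls were lost without replicate 2 and without replicate 3, and the higher calls numbered 1 and 0.

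Of 5 tested UCH deubiquitinase genes, Uchl3 (0.31 ± 0.07), Uchl4 (0.34 ± 0.04) and Uchl5 (0.21 ± 0.07) were higher and 0 were lower, also at an unadjusted p under 0.05. Bap1, a tumour suppressor of the family, had -0.04 ± 0.03 and, like Uchl1, was not called, but both were called higher under median centring. The count of 3 was 1 without replicate 2 and 2 without replicate 3. Uchl4 is a close copy of Uchl3, and probes may read both. Of 9 tested genes of monoamine synthesis and storage, Slc18a2 alone was called, although a dimmer Ddc probe was called higher (0.24).

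The members' other possible sources were read with marker lists. Of 20 tested neuron markers, 2 were lower, among them Rbfox3 at -0.34 ± 0.13, and 1 was higher (Nefh at 0.29 ± 0.09). A dimmer Rbfox3 probe, at -0.09, was not called. The summed intensity of the neuron markers was 6050 to 7140 in hypomorph pools and 5850 to 7720 in wild type pools. The autonomic neuron gene Ret was well above background on 0 arrays. Glial markers summed to 31200 to 34500 in hypomorph pools and 30600 to 34200 in wild type pools, with 1 of 7 called, Fabp7 (0.47 ± 0.35).

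Tuft cell markers summed to 933 to 981 in hypomorph pools and 965 to 1100 in wild type pools, with Dclk1 lower at its brightest probe (-0.23 ± 0.09), the only one of 6 called, although another Dclk1 probe was called higher at 0.28. Of the thyroid and parathyroid markers, whose tissue makes calcitonin, 3 were tested and 0 called by limma, with 1 higher at an unadjusted p under 0.05. Tg, the thyroglobulin gene, had -0.21 ± 0.25 and was not called. Among epithelial markers, Cdh1 was higher (0.23 ± 0.09, adjusted p = 0.0238), and Epcam had 0.17 ± 0.09 (adjusted p = 0.0508) and was called higher in 10 of 19 alternatives. The neuron, glia and tuft cell calls were lost without replicate 2, and under median centring 5 neuron markers were lower and 5 higher. The part of these cell types in the Calca and Calcb ratios was not tested.

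The targeted gene itself was read by a 10-spot Fgf8 probe with 249, 309, 281 and 280 in hypomorph pools, against 307, 362, 299 and 297 in wild type pools. It was lower on 4 of 4 arrays but not called (-0.18 ± 0.11, adjusted p = 0.0571), though it was called in 6 of 19 alternatives, and whether the altered allele touches this probe's target was not tested. Between 32731 and 34519 of 43379 spots were well above background for the hypomorph and between 32491 and 33744 for the wild type. Spike-in controls returned slopes of 0.690 to 0.718 of observed against designed log ratios.

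The tested probes whose 4 ratios lay nearest to those of the Calca variant 2 probe, by Euclidean distance among 27137 probes, were Fabp12 (distance 0.124, mean ratio -0.60), Tnfrsf4 (0.157, mean ratio -0.63), Cav2 (0.181, mean ratio -0.67), Gramd1a (0.193, mean ratio -0.62) and Apoc1 (0.194, mean ratio -0.71). They share the arrays and pools with Calca, and the likeness rests on 4 points.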

How the data were processed

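The mean and local background intensities are raw scanner values and the processed intensities are background-subtracted and dye-normalized, per the file headers. Agilent Feature Extraction 9.5.1 is named in the submitters' processing notes. The log10 ratio column of the deposited files is red over green. The deposited series table holds log2 values that match log2 of processed red over green (correlation 1), that is, hypomorph over wild type and uncentred, with column medians of -0.02, 0.00, -0.05 and -0.02.

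From these, limma 3.58.1 (R 4.3.3) corrected background with normexp (offset 50) and applied loess within arrays (span 0.3, control spots at weight 0). Control spots and spots marked as outliers were dropped and spots of a probe averaged. Testing required a probe to exceed background clearly, in Cy3 or Cy5, on 3 or more arrays. Log2 ratios were fitted with lmFit and eBayes against 0, with Benjamini-Hochberg adjustment over all tested probes. 95% intervals come from the moderated standard errors. Channel intensities follow loess and Aquantile and include the offset. The 4 arrays lay on 1 slide read in 1 scan, so there was no block, and their number limits the precision. Symbols were updated by accession for 24375 probes from a GRCm38.p6 RefSeq table. Probes that the files name Ramp2 but describe and place as another transcript were not counted as Ramp2. The steps were tested on simulated data.

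The members, the 14 gene lists and the tests were chosen with earlier results of these data known. The genes named are the members, Fgf8, up to 4 called genes and the leading genes of each list, genes within 500 kb, and the 5 probes most like Calca. The 19 alternatives covered background, normalization, filter, variance model, channels, probe choice and each replicate left out. Some genes taken by this rule are not reported here. Probe sequences were not used here.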

Additional observations from a re-analysis of the deposited data

Results flagged for a closer look

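Of 62 log2 ratios checked, 7 had 1 array farther from the other arrays than Dixon's 95% limit for 4 values, which chance gives in about 1 in 20 groups. Syp had -0.11 on replicate 4, against 0.02 to 0.04 on the others. Pomc had 0.42 on replicate 2, against 0.19 to 0.23. Rims2 had 0.10 on replicate 1, against 0.19 to 0.21. Uchl4 had 0.28 on replicate 4, against 0.35 to 0.36. Celf3 had -0.54 on replicate 1, against -0.39 to -0.37. Heyl had 0.62 on replicate 1, against 0.33 to 0.36. Epcam had 0.04 on replicate 4, against 0.21 to 0.24. The flagged arrays were replicates 1, 2 and 4, and no Calca, Calcb or Chga value was among them.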

How the results depend on the processing

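The Calca variant 2 and Calcb probes kept their sign and their call in all 19 alternatives, with adjusted p-values up to 0.035 and 0.023. The number of member probes called lower ranged from 2 to 4 with 1 replicate left out, because the Calca variant 1 and Chga probes lost their call without replicate 2 or without replicate 3. The number called higher was 1, against 0, with median centring, scale normalization and separate channels, each time Uchl1. The Syp ratio, which is near 0, ranged from -0.02 to 0.03 with 1 replicate left out, being positive without replicate 4, and took the opposite sign at 0.00 with array weights. The Cyp2r1 ratio, also near 0, ranged from -0.02 to 0.13 with 1 replicate left out. With median centring, Ica1 turned to 0.10, Calcrl to 0.05, Syngr1 to 0.01, Rab3a to 0.07 and Bap1 to 0.23, and the cause was not tested. That setting also called Resp18 (-0.21) and Scg5 (-0.29) lower. Scg5 was also called without background correction (-0.24) and with separate channels (-0.20). Of the log2 ratios followed through the alternatives, 1049 kept sign and call, 161 lost the call, 27 gained it and 8 changed sign. The number of all probes called was 7468, against 14788 with median centring, 1586 without replicate 2, 2399 without replicate 3 and 4844 without replicate 4. The list of processing genes had 1 to 7 genes called lower with 1 replicate left out and 2 with the processed intensities, against 5. The atlas list had 3 to 8, against 8. Each array sets a hypomorph pool against a wild type pool, so the pairing is in the ratio and the fit against 0 is a paired analysis. The series table gave the same values as the processed intensities. Members near background, such as Scg2 and the dimmer Chgb probe, were limited by signal.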
